A study of Mus musculus with 6 samples.

Results

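Aminoacyl-tRNA synthetases, the enzymes that join each amino acid to its tRNAs, were examined in a list of H3K27ac peaks from mouse embryonic stem cells (mESCs). H3K27ac is the acetylation of lysine 27 of histone H3, a mark found at active promoters and enhancers. Members were the protein-coding genes of the GENCODE annotation (GRCm38) whose symbols have the form of a synthetase name, such as Aars or Aars2, together with Farsa, Farsb, Eprs, Pars2, Ears2 and Tarsl2. The rule found 38 of 21853 protein-coding genes, and it used gene names and no measured value. Of these, 21 were counted as cytosolic, among them the dual genes Gars and Kars, and 17 as mitochondrial.

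Protein synthesis runs in the cytosol and, separately, in mitochondria, and each system needs charged tRNAs for every amino acid. Most amino acids are served by a cytosolic enzyme and by a mitochondrial enzyme from another nuclear gene, whose symbol ends in 2, whereas Gars and Kars encode enzymes for both compartments. In the cytosol several synthetases sit together in a multisynthetase complex, and when amino acids run short the kinase GCN2 senses uncharged tRNAs and the transcription factor ATF4 raises many cytosolic synthetase genes.

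The cells were E14Tg2A Rosa26-Cre Oct4-IRES-Puro mESCs grown in N2B27 medium with LIF, PD0325901 and CT-99021, and HEK293T chromatin was added to every library as a spike-in. The series has 3 conditions with 2 replicates each, namely Control (DMSO), NVP-2 (100 nM, an inhibitor of CDK9) and ActD (actinomycin D, 800 nM in the labels), all treated for 120 min. Analysed here was the list of 22973 control peaks that pools both Control libraries. The list gives positions without heights or scores, so the values below are positions and widths in base pairs, they have no replicate error, the depth behind a peak cannot be read from the list, and the treated cells were not analysed here. The promoters of the stem cell genes Pou5f1, Nanog, Sox2, Zfp42 and Dppa5a were marked, and those of Alb, Myod1, Neurod1 and Gata1, genes of other lineages, were not.

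Nearly all synthetase promoters carried a control peak. A promoter counted as marked where a peak shared at least 1 base with the window of 1 kb on each side of the transcription start site (TSS). By this measure 37 of 38 members were marked, or 97.4% (95% Wilson interval 86.5 to 99.5%), beside 48.8% of all protein-coding genes. Cytosolic genes were marked in 20 of 21 cases (95.2%, interval 77.3 to 99.2%) and mitochondrial genes in 17 of 17 cases (100%, interval 81.6 to 100%). The cytosolic share was lower by a difference of -4.76 percentage points, and its Newcombe interval from -22.7 to 14.1 points included 0. These intervals cover counting over genes only.

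The TSS base itself lay inside a peak in 20 of 21 cytosolic and 16 of 17 mitochondrial genes, against 44.2% of all protein-coding genes. Every marked member had exactly 1 peak at its promoter. Families of genes that act beside the synthetases were also marked at most promoters. Genes named for translation initiation factors (symbols beginning with Eif and a digit, here Eif genes) were marked in 49 of 55 cases (89.1%, interval 78.2 to 94.9%). This symbol rule also takes in genes that are not initiation factors, such as Eif2ak4, the gene of GCN2. Mitochondrial ribosomal proteins were marked in 77 of 78 cases (98.7%, interval 93.1 to 99.8%).

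**Figure D1:**
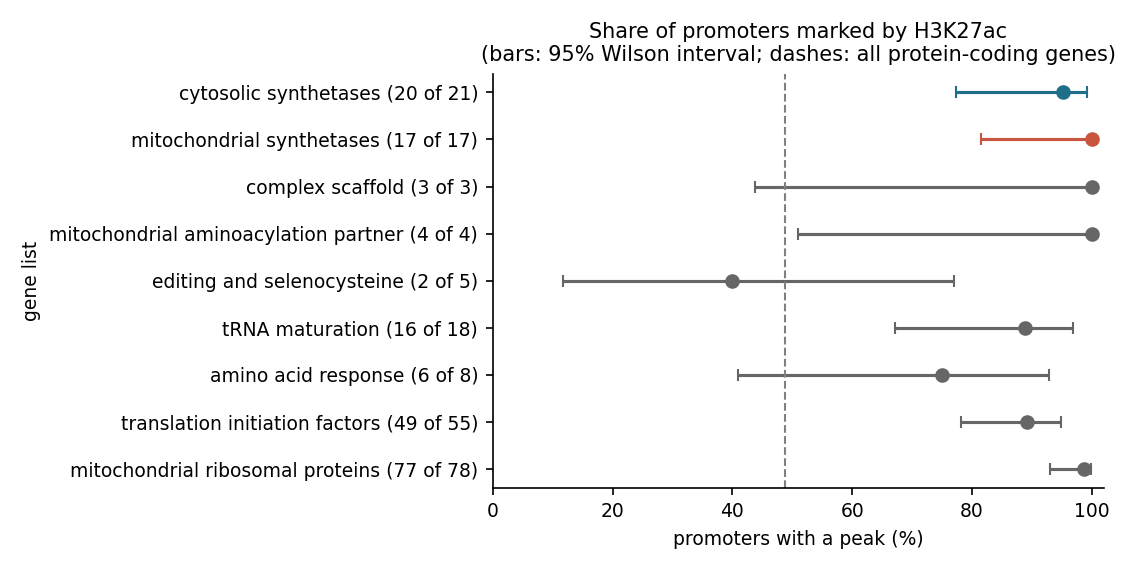
Share of promoters with a control H3K27ac peak within 1 kb of the TSS, in percent on the x axis, for synthetases, related gene lists and both comparison families on the y axis. Points are shares, bars are 95% Wilson intervals and the dashed line is the 48.8% of all protein-coding genes. Both synthetase groups lie at 95.2% and 100%, and the list of editing and selenocysteine genes lies lowest at 40.0%.

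Tarsl2 was the unmarked member. It encodes a second cytosolic threonyl-tRNA synthetase beside Tars, and lies at chr7:65644898-65692091 on the plus strand with a single annotated TSS. The nearest listed peak, 1069 bases wide, began 48.1 kb downstream of the TSS and 953 bases past the end of the gene, and no peak lay inside the gene. Its promoter was richer in CpG than that of most protein-coding genes. Over 1001 bases around the TSS the GC content was 66.3% and the observed-to-expected CpG ratio was 0.692, beside medians of 56.3% and 0.736 over all members and of 55.2% and 0.570 over all protein-coding genes. Whether the region lacked signal or failed a threshold of the peak filter cannot be read from the list.

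At Nars2, the mitochondrial asparaginyl-tRNA synthetase gene, the peak missed the TSS. The TSS at position 96951505 of chromosome 7 lay 10 bases before the peak chr7:96951515-96952245. At 731 bases this peak was the narrowest of all members, wider than 5.53% of the promoter peaks of marked protein-coding genes. The start annotated by RefSeq lies 22 bases downstream of the GENCODE TSS and fell inside the peak.

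The peaks of cytosolic genes extended further downstream of the TSS than those of mitochondrial genes. From the TSS to the downstream edge of the peak, the median was 1859.5 bases over the 20 marked cytosolic genes (95% interval of the median 1428 to 3013) and 1008 bases over the 17 mitochondrial genes (881 to 1210), and these intervals did not overlap. They did overlap when only peaks of at least 1 kb were used (1428 to 3013 and 881 to 1590) and when Gars and Kars were counted as mitochondrial (1279 to 3440 and 881 to 1590). All 10674 marked protein-coding genes had a median of 1172 bases, which 18 of 20 cytosolic and 7 of 17 mitochondrial genes exceeded. The upper quartile of all marked protein-coding genes, 2485 bases, was exceeded by 9 cytosolic genes and by 1 mitochondrial gene, Tars2. No test was run, since genes are not replicates of a condition and the list is 1 pooled set.

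Upstream of the TSS the medians of the groups lay close together. The median distance to the upstream edge was 791.5 bases for cytosolic genes (579 to 986) and 784 bases for mitochondrial genes (537 to 2295), beside 841 bases over all marked protein-coding genes. The downstream side was the longer one in 18 of 20 cytosolic and 11 of 17 mitochondrial genes, against 67.6% of all marked protein-coding genes. Median gene length was 26.1 kb for cytosolic and 30.1 kb for mitochondrial genes, and its part in the difference of reach was not tested.

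**Figure D2:**
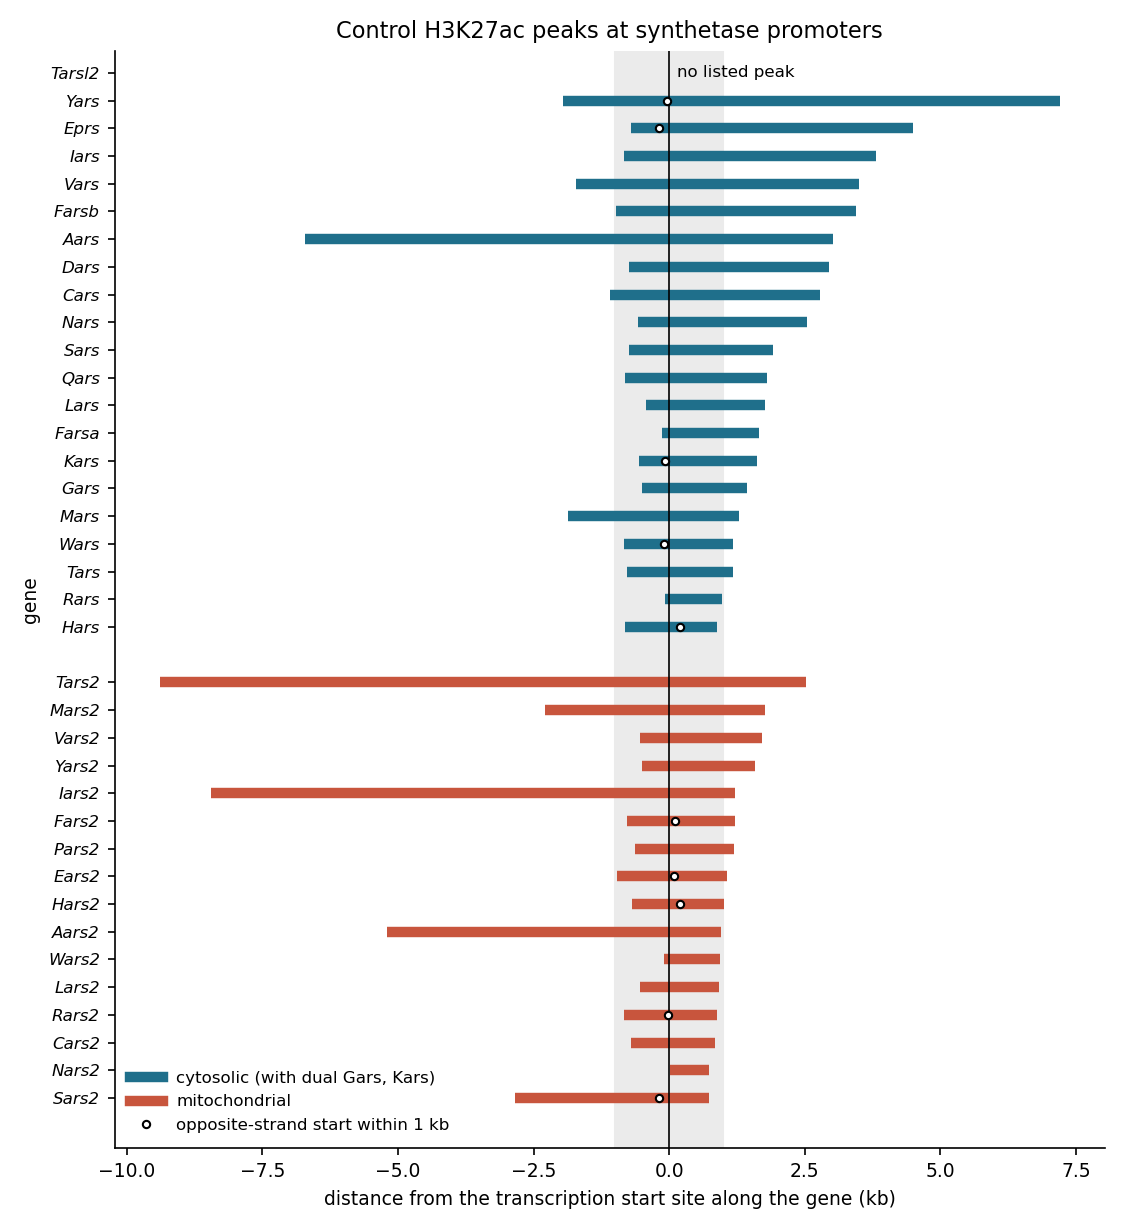
Extent of the control H3K27ac peak at synthetase promoters, on the x axis in kb from the TSS along the direction of transcription, with 1 gene per line on the y axis. The gray band is the window of 1 kb on each side and open circles are opposite-strand starts within 1 kb. Cytosolic peaks (blue) reach between 885 and 7198 bases downstream and mitochondrial peaks (red) between 725 and 2515 bases, and Tarsl2 has no listed peak.

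The comparison families fell on either side. The downstream median was 1691 bases over the marked Eif genes (1243 to 2534) and 1041 bases over those of mitochondrial ribosomal proteins (960 to 1144). The first value lay inside the interval of the cytosolic synthetases and the second inside that of the mitochondrial synthetases.

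Genes for the same amino acid showed the same order in most cases. Of the 15 combinations reported of a cytosolic and a mitochondrial gene for 1 amino acid with both marked, 14 had separate peaks (Fars2 counts in 2 of them, with Farsa and with Farsb), and in 12 of these the cytosolic gene's peak reached further downstream. For tyrosine, the peak of Yars reached 7198 bases past its TSS and that of Yars2 reached 1590 bases. For isoleucine the distances were 3813 bases at Iars and 1210 at Iars2, and for asparagine 2548 bases at Nars and 740 at Nars2. The 2 exceptions were threonine, with 1174 bases at Tars and 2515 at Tars2, and methionine, with 1279 bases at Mars and 1767 at Mars2. In total width the order was less uniform, since the cytosolic peak was wider in 8 of the 14 combinations and the mitochondrial peak in 6.

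**Figure D3:**
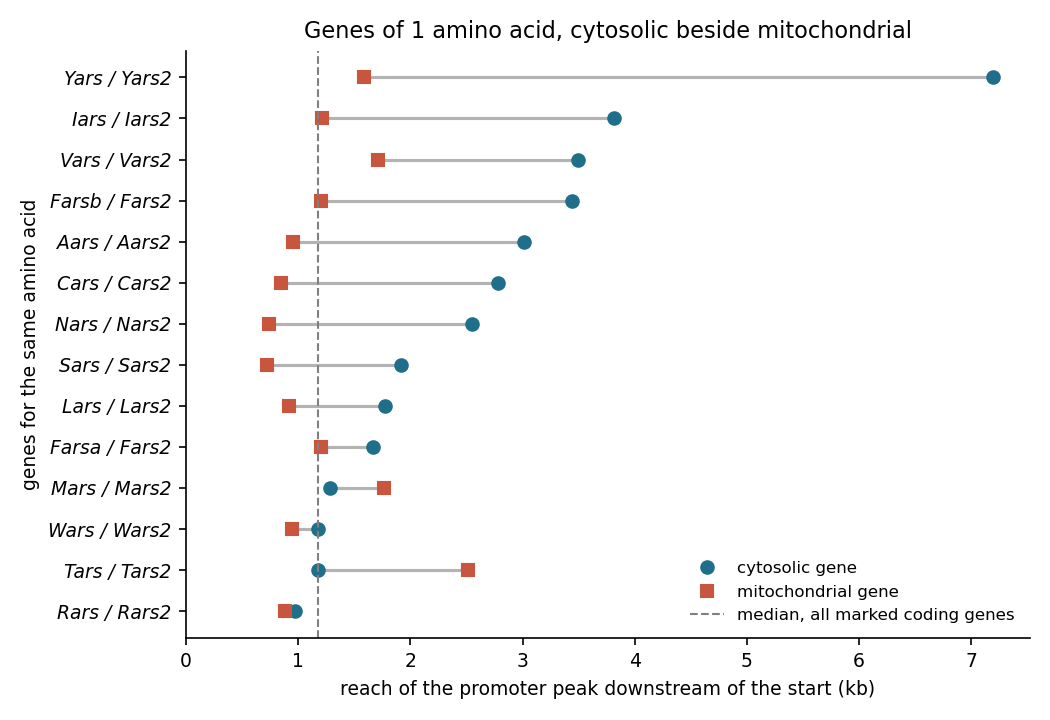
Reach of the promoter peak downstream of the TSS in kb (x axis) for the 14 combinations of a cytosolic (circles) and a mitochondrial (squares) gene for the same amino acid that have separate peaks (y axis). The dashed line is the median of all marked protein-coding genes, 1172 bases. Circles lie to the right of squares in 12 combinations and to the left for Tars and Tars2 and for Mars and Mars2.

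Total widths overlapped between the compartments. The median peak width was 2888.5 bases at cytosolic promoters (2017 to 4427, n = 20) and 2033 bases at mitochondrial promoters (1697 to 3571, n = 17), with overlapping intervals, and 2174 bases over all marked protein-coding genes. Peaks of at least 3 kb stood at 10 of 20 cytosolic and 5 of 17 mitochondrial genes, against 38.4% of all marked protein-coding genes. Within the 2001 bases of the promoter window, peaks covered a median of 1745 bases at cytosolic (1564 to 1987) and 1714 bases at mitochondrial promoters (1538 to 1957).

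The widest cytosolic peaks were those of Aars, the alanyl-tRNA synthetase gene (9719 bases, chr8:111027197-111036915), and Yars, the tyrosyl-tRNA synthetase gene (9156 bases, chr4:129187803-129196958). They differed in their direction. The peak of Aars extended 6705 bases upstream, over the promoter of Ddx19b, and 3013 bases downstream of the TSS, whereas that of Yars extended 1957 bases upstream and 7198 bases downstream, so that it covered 24.1% of the gene. The annotated gene of Aars begins 758 bases before the chosen TSS, and 3772 bases of its peak lay inside the gene. Next came Eprs and Vars at 5206 bases each and Iars at 4646 bases. Eprs encodes the fused glutamyl-prolyl-tRNA synthetase, and its peak lay mainly inside the gene (4499 bases downstream of the TSS, 706 upstream).

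The narrowest cytosolic peak was at Rars, the arginyl-tRNA synthetase gene, with 1051 bases, of which 75 lay upstream of the TSS. Hars followed with 1697 bases, Farsa with 1790, Gars with 1937 and Tars with 1947 bases. Farsa and Farsb encode the subunits of a single cytosolic enzyme, phenylalanyl-tRNA synthetase, and their peaks were unequal. The peak of Farsb was 4427 bases wide, and reached 3440 bases downstream of the TSS against 1663 at Farsa.

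Among mitochondrial genes the widest peaks lay mostly upstream of the chosen TSS. The peak of Tars2 (mitochondrial threonyl-tRNA synthetase) was the widest of all members with 11908 bases at chr3:95752356-95764263, of which 9392 lay upstream of the TSS. The annotated gene of Tars2 runs 5335 bases further upstream, to the start of another isoform, so that 7851 bases of the peak lay inside the gene and 4057 before it. At Iars2 (mitochondrial isoleucyl-tRNA synthetase) 8438 of 9649 bases lay upstream, and the peak also covered the promoter of Bpnt1. At Aars2 (mitochondrial alanyl-tRNA synthetase) 5197 of 6154 bases lay upstream. Mars2 followed with 4063 bases and Sars2 with 3571 bases. The narrowest after Nars2 were Wars2 with 1040 bases, Lars2 with 1447, Cars2 with 1552 and Hars2 with 1697 bases. At Wars2 the peak lay almost wholly inside the gene, with 94 bases upstream of the TSS.

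**Figure D4:**
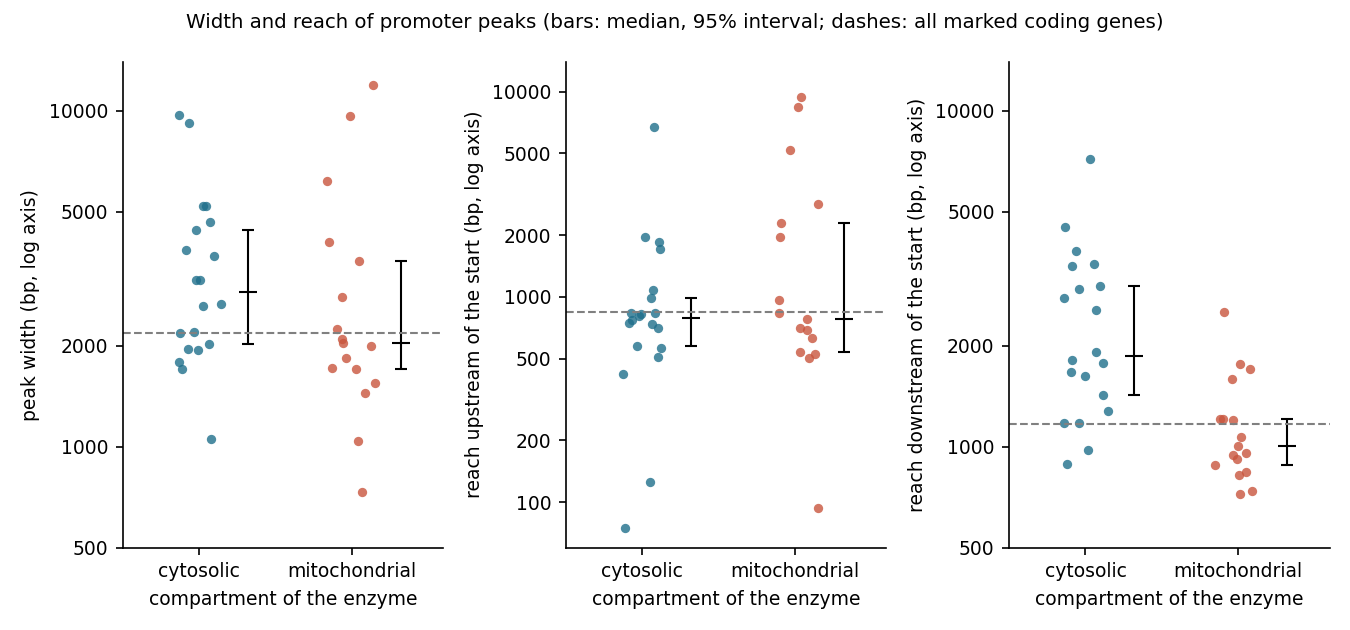
Width of each promoter peak and its reach upstream and downstream of the TSS in bases on log y axes, by compartment on the x axis, with 1 point per marked gene. Black bars give the median with its 95% interval, and dashed lines give the median over all marked protein-coding genes (2174, 841 and 1172 bases). The compartments separate most in the downstream panel, with medians of 1859.5 and 1008 bases, and Nars2, whose peak begins 10 bases past its TSS, is not drawn in the upstream panel.

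Some synthetase promoters faced a second gene. A TSS on the opposite strand lay within 1 kb of 5 of 21 cytosolic and 6 of 17 mitochondrial members, against 11.6% of all protein-coding genes. The comparison families had shares above 11.6% too, with 31 of 78 mitochondrial ribosomal protein genes (39.7%) and 10 of 55 Eif genes (18.2%). Members and such neighbors share the peak, so that its acetylation cannot be assigned to either gene. Mitochondrial members faced, among others, Orc3, an origin recognition subunit gene (13 bases from Rars2), Ubfd1 (88 bases from Ears2), Lyrm4, a gene for iron-sulfur cluster assembly (114 bases from Fars2), and Mrps12, a mitochondrial ribosomal protein gene (182 bases from Sars2). The members Hars and Hars2, for histidine in the cytosol and in mitochondria, faced each other with TSSs 197 bases apart and shared 1 peak of 1697 bases.

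Cytosolic members faced S100pbp (33 bases from Yars), the telomere protein gene Terf2ip (75 bases from Kars), Wdr25 (98 bases from Wars) and the lincRNA gene 4930532G15Rik (179 bases from Eprs). In all, 13 members had a peak that also touched the promoter window of another gene, beside 29.3% of all marked protein-coding genes. The pattern of downstream reach was present among genes with no opposite-strand TSS within 1 kb, with medians of 1912 bases in 15 marked cytosolic genes (1428 to 3013) and 1203 bases in 11 mitochondrial genes (843 to 1767), but there the intervals overlapped. Among members with such a TSS, the downstream side was the longer one in 5 of 5 cytosolic and 4 of 6 mitochondrial genes. Without one, it was the longer side in 13 of 15 marked cytosolic and 7 of 11 mitochondrial genes. Sars2 was among the exceptions, with 2845 bases upstream and 725 bases downstream.

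The 8 synthetases of the multisynthetase complex were all marked. Their widths ran from 1051 bases at Rars through 2183 at Kars, 2194 at Lars, 2630 at Qars, 3140 at Mars, 3696 at Dars and 4646 at Iars to 5206 at Eprs. Their median of 2885 bases (1051 to 5206) was close to the 2888.5 bases of the 12 marked cytosolic genes outside the complex (1937 to 5206). Qars has no mitochondrial counterpart gene, since mitochondria make glutaminyl-tRNA by amidation of glutamyl-tRNA, and its peak reached 1807 bases downstream. Of the dual genes, Kars reached 1619 and Gars 1428 bases downstream, both between the medians of the purely cytosolic genes (2230 bases) and the mitochondrial genes.

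A list of synthetase genes that ATF4 is known to raise held 13 of the 20 marked cytosolic genes. All 13 genes on it were marked, with a median width of 3140 bases (2017 to 5206) and a median downstream reach of 2548 bases (1279 to 3813). The 7 other marked cytosolic genes had medians of 2183 bases (1051 to 4427) and 1663 bases (885 to 3440), so the intervals overlapped. Beyond genes given above, the list holds Cars (3861 bases wide, 2777 downstream), Nars (3128 and 2548), Sars (2649 and 1912), Lars (2194 and 1772) and Wars (2017 and 1180).

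ATF4 binds a composite site with C/EBP proteins, the amino acid response element, written here as TGATGNAA. It was searched on both strands from 250 bases before to 50 bases after the RefSeq start, in the 28 members whose promoter was found in the RefSeq table (14 cytosolic and 14 mitochondrial). The element was found in 5 of 14 cytosolic promoters (35.7%, interval 16.3 to 61.2%) and in 0 of 14 mitochondrial promoters (interval 0 to 21.5%), beside 3.53% of all protein-coding promoters and 2.06% of marked ones. All 5, Aars, Gars, Iars, Tars and Yars, belong to the ATF4-responsive list, which held 8 of the 14 searched cytosolic promoters. Cars, Lars, Nars, Vars and Wars, also on that list, had no sequence and were not searched. A match is a string of letters and not a measured binding site.

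The matches are shown with the promoter around them, from GRCm38.p6 in RefSeq, 5′ to 3′ on the gene's strand, with the element or its reverse complement in capitals. Positions count from the RefSeq start as 1, and negative positions lie before it. Relative to the TSS used for the peaks, the RefSeq start lies at -60 bases for Aars, -6 for Gars, 30 for Iars, 7 for Tars and 143 for Yars. Aars (chr8:111033722-111033861) holds matches beginning at -112 and 10, Gars (chr6:55037881-55038020) at -30 and Tars (chr15:11399646-11399778, minus strand) at -15. The matches of Iars (chr13:49682126-49682155) at 8 and of Yars (chr4:129189895-129189924) at 4 lie past the start, and 30 bases are shown.
Aars: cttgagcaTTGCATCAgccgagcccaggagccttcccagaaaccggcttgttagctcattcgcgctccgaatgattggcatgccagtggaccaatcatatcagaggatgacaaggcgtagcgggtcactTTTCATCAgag
Gars: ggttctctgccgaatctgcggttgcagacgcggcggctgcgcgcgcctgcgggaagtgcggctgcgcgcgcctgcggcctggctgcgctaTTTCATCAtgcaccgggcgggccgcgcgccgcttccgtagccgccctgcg
Tars: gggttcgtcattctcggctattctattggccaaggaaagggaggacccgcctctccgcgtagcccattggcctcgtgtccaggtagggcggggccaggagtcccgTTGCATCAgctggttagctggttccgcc
Iars: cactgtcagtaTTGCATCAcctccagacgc
Yars: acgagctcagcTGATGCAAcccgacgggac

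All bases shown lie inside the control peak of their gene. Aars, Gars, Iars and Tars hold the reverse complement of the element, and Yars holds it as written.

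The same stretch of Tarsl2 (chr7:65644778-65644917) is shown beside that of Tars above, because these genes encode enzymes for the same amino acid in the same compartment and differ in whether a peak is listed. No base of it lies in a peak and it holds no match to the element.
Tarsl2: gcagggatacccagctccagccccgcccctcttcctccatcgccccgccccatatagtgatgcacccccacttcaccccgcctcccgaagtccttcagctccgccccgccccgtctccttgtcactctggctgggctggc

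Nuclear respiratory factor 1 (NRF1) is a transcription factor known to bind promoters of nuclear genes for mitochondrial proteins. Its palindromic core, searched as CGCATGCG, was found in 2 of 14 mitochondrial promoters (14.3%, interval 4.01 to 39.9%) and in 0 of 14 cytosolic promoters (interval 0 to 21.5%), beside 2.65% of all protein-coding promoters and 4.42% of marked ones. The matches began at -47 and -21 in Vars2, the mitochondrial valyl-tRNA synthetase gene (chr17:35667573-35667712, minus strand), and at -63 in Wars2, the mitochondrial tryptophanyl-tRNA synthetase gene (chr3:99140970-99141087). Nars2 (chr7:96951407-96951524) is shown with them as the promoter whose TSS lay outside its peak, and it holds no match. Capitals mark the NRF1 core.
Vars2: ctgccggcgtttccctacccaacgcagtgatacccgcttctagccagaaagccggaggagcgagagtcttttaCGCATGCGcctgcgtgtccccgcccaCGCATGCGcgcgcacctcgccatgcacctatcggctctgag
Wars2: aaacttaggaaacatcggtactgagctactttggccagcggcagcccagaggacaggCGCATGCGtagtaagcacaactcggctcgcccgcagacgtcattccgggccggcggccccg
Nars2: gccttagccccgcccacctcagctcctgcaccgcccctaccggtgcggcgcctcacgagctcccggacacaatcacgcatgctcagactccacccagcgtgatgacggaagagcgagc
The peak covered all 140 bases of the Vars2 stretch, 114 of 118 bases at Wars2 and 10 of 118 bases at Nars2.

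The other motifs, except the CREB site, were found in both compartments. An ETS site, CCGGAAG, was found in 5 of 14 cytosolic promoters (Farsa, Gars, Kars, Mars and Sars) and 4 of 14 mitochondrial promoters (Cars2, Mars2, Rars2 and Sars2), beside 20.5% of marked protein-coding promoters. The E-box CACGTG, bound by MYC and USF proteins, was found in 4 of 14 cytosolic promoters (Aars, Farsb, Iars and Tars) and 1 of 14 mitochondrial promoters (Ears2). Together these were 5 of 28 (17.9%, interval 7.88 to 35.6%, beside 10.8%). A YY1 site, GATGGCG, was found in 1 of 14 cytosolic promoters (Farsa) and 3 of 14 mitochondrial promoters (Aars2, Wars2 and Yars2). Together these were 4 of 28 (14.3%, interval 5.70 to 31.5%, beside 7.52%). The GC box GGGCGG was found in 20 of 28 members (71.4%, beside 67.9%) and the NF-Y box CCAAT in 13 of 28 (46.4%, beside 39.0%), and the TBP box TATAAA in 3 of 28 (10.7%, interval 3.71 to 27.2%, beside 6.10%), namely Farsa, Aars2 and Tars2, with matches beginning at -239, -212 and -202. The CREB site TGACGTCA was found in 0 of 28 members (interval 0 to 12.1%, beside 3.53%). With 14 promoters in each compartment, the intervals of the cytosolic and mitochondrial shares overlapped for every motif of the 9.

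**Figure D5:**
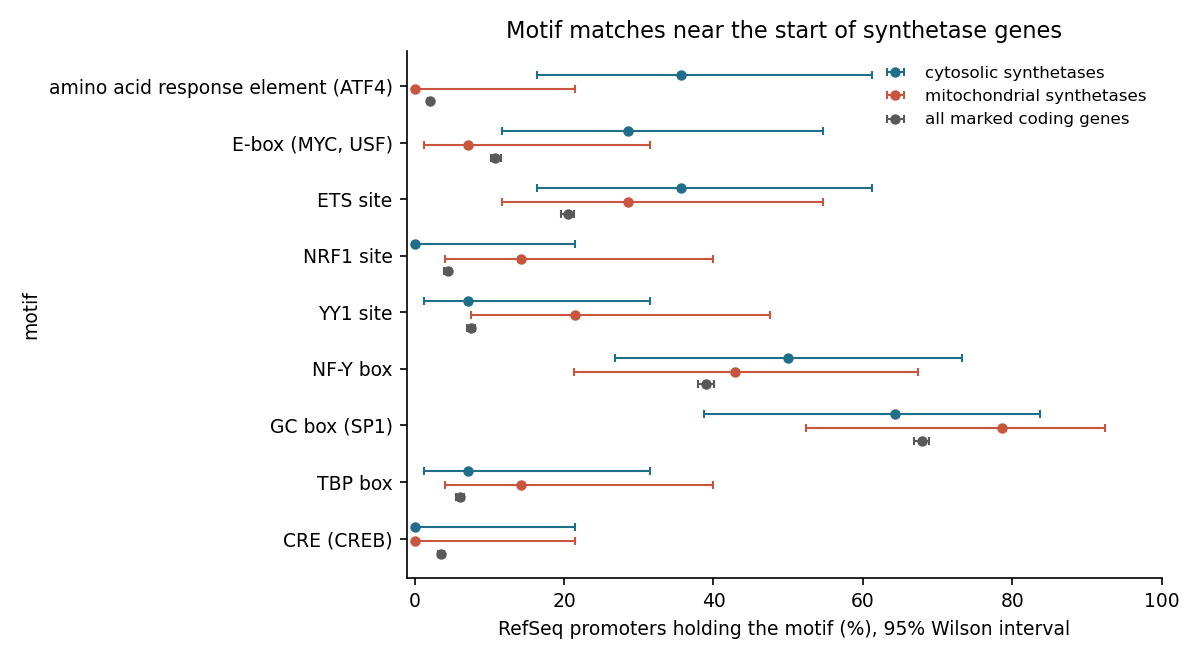
Share of RefSeq promoters that hold each motif, in percent on the x axis with 95% Wilson intervals, for 9 motifs on the y axis. Blue points are the 14 cytosolic synthetases with a sequence, red points the 14 mitochondrial ones and gray points all marked protein-coding genes. The ATF4 element stands at 35.7% in cytosolic genes, 0% in mitochondrial genes and 2.06% in all marked genes.

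Further peaks lay inside the gene body of 5 cytosolic and 5 mitochondrial members, 11 peaks in all, beside 21.9% of all protein-coding genes with such a peak. At Yars a peak of 55512 bases began 23.9 kb past the TSS and ran beyond the end of the gene over the promoters of C77080 and Gm12976. At Mars, the cytosolic methionyl-tRNA synthetase gene, a peak of 8785 bases overlapped the end of the gene and lay over the promoters of Ddit3 and Mbd6. Ddit3 encodes CHOP, a transcription factor induced by ATF4. Aars had a peak of 8875 bases over the promoter of Exosc6. These 3 peaks thus coincide with other promoters.

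Of the other peaks in gene bodies, 7 touched no promoter window of another gene. Cars held a peak of 9286 bases from 6.38 to 15.7 kb past its TSS, and Dars held peaks of 3375 and 3936 bases that began 14.5 and 21.6 kb past its TSS. Among mitochondrial genes, Cars2 held a peak of 6472 bases, Fars2 one of 1578 bases at 145.5 kb, Aars2 one of 1354 bases at 8.26 kb and Lars2 one of 315 bases at 90.5 kb. Such peaks were thus wide at Cars and Cars2, the genes for cysteine, and narrow at Lars2.

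Related genes were taken from mixed lists, from the scaffold of the complex and tRNA maturation to the amino acid response. Pooled, they were marked in 31 of 38 cases (81.6%, interval 66.6 to 90.8%), beside the 48.8% of all protein-coding genes. The share ran from 40.0 to 100% between the lists. All 3 scaffold genes of the multisynthetase complex were marked, with peaks of 1997 bases at Aimp1, 3862 at Aimp2 and 2943 at Eef1e1. All 4 genes that complete aminoacylation in mitochondria were marked. Of these, Gatb, Gatc and Qrsl1 encode the amidotransferase that makes glutaminyl-tRNA and Mtfmt encodes the enzyme that formylates methionyl-tRNA. Their peaks reached 576 to 812 bases downstream of the TSS.

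In tRNA maturation 16 of 18 genes were marked (88.9%, interval 67.2 to 96.9%). The exceptions were Elac1 and Elac2, which encode nucleases for the 3′ end of tRNA precursors, with the nearest listed peak 49.8 and 118 kb away. The list of editing and selenocysteine enzymes had the lowest share, with 2 of 5 genes marked (40.0%, interval 11.8 to 76.9%, which includes the 48.8% of all protein-coding genes). Here Dtd1, a deacylase for D-aminoacyl-tRNAs, and Sepsecs and Pstk, which make selenocysteinyl-tRNA, were unmarked, and Pstk was marked at the TSS of another isoform.

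Of 8 genes of the amino acid response, 6 were marked (75%, interval 40.9 to 92.9%, which includes the 48.8% of all protein-coding genes), and several of their peaks were wide. Asns, the asparagine synthetase gene, lay in a peak of 28149 bases, Sesn2 in one of 14791, Trib3 in one of 11733 and Ddit3 in one of 8785 bases. The median over the 6 genes, 10259 bases, lay above the widths of all synthetase promoter peaks but that of Tars2. Eif2ak4, the gene of GCN2, had a peak of 1591 bases and Chac1 one of 2087 bases. No listed peak lay within 1 kb of the TSS of Atf4, with the nearest 17.9 kb away, or of Psat1, a gene of serine synthesis, which was marked at the TSS of another isoform.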

How the data were processed

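The data are H3K27ac ChIP-seq of mESCs. The authors trimmed reads with cutadapt, aligned them with bwa meme to the mouse (mm10) and human genomes together, removed duplicates (Picard 2.9.1) and poorly mapped reads (SAMtools 1.4), called peaks with LanceOtron, merged peaks within 2 kb, and filtered them by height and by ATAC-seq summits. Merging joins near peaks, which widens them. The deposited list, pooled over both Control libraries, gives chromosome, start and end in base pairs, with no score or count, so the depth behind a peak cannot be read from it. The study gives read totals for both libraries, which are unequal. Conditions were taken from the sample labels.

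Coordinates are printed with 1 as the first base. GENCODE M21 and GRCm38 were used, and the isoform of longest genomic span gave the TSS. A peak sharing 1 base with the 2001-base window marked a promoter. Shares have 95% Wilson intervals, differences Newcombe intervals and medians exact binomial order-statistic intervals, and no test was run. All members were counted, 1 of them in the groups but not reported by itself, and those named with values were the unmarked ones, those whose TSS lay outside the peak, those sharing a peak, the 5 widest and 5 narrowest of each compartment, those with further peaks, and the complex, dual and ATF4-responsive genes. The members and lists were chosen with earlier results of these data known. The downstream reach, the amino acid combinations and the 9 motifs were chosen after the data were seen. Functions were tested on simulated peaks. Python 3.11.15, numpy 2.4.6 and scipy 1.17.1 were used.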

Additional observations from a re-analysis of the deposited data

How the results depend on the processing

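Both shares, their difference and the median widths were recomputed under windows of 500 bases and 2 kb, the TSS base alone, any isoform, the isoform of longest spliced length, peaks of at least 1 kb, an overlap of at least 500 bases, other assignments of Gars and Kars, and members without another TSS within 2 kb. The median window coverage was recomputed under both isoform choices, the peak width, the assignments and the member choice, and the median downstream reach under the window of 500 bases, the spliced length, the peak width, the assignments and the member choice. Of 70 values, 0 left the interval of the value reported. This is a weak check, since the intervals are wide and several settings kept the same peaks. Under windows of 500 bases and 2 kb, for example, the median widths stayed at 2888.5 and 2033 bases. The cytosolic share ran from 93.8 to 95.2% and the mitochondrial share from 94.1 to 100%. Their difference ran from -6.25 to 1.12 percentage points, and turned positive with the TSS base alone and with peaks of at least 1 kb. The alternatives for the downstream reach, with cytosolic medians from 1859.5 to 2230 bases and mitochondrial medians from 1008 to 1203 bases, were added after the data were seen. Under 3 of them, namely peaks of at least 1 kb, Gars and Kars as mitochondrial, and members without another TSS within 2 kb, the cytosolic and mitochondrial intervals of the reach overlapped. No paired analysis was possible because both replicates were pooled in the list, so that neither leaving out a replicate nor fitting a block could be done. The list limits what can be said: a missing peak may lie below a height threshold, and widths carry no signal strength.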

Other observations

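The list is not sorted by position, and the basis of its order is not given in the sources used here. Peaks of cytosolic synthetase promoters stood earlier in it, at a median line of 2826 (from 338 to 8582), than those of mitochondrial promoters, at a median line of 6047 (from 996 to 14848), and the median over all marked protein-coding genes was 7786.

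Eprs and Iars2 lie 33.6 kb apart on chromosome 1 with separate peaks that extend in different ways, that of Eprs mainly downstream (4499 against 706 bases upstream) and that of Iars2 mainly upstream (8438 against 1210 bases downstream). By the structural class of the enzyme, class I genes were marked in 18 of 18 cases with a median width of 2220 bases (1714 to 4063), and class II genes in 18 of 19 cases with a median width of 2416 bases (1837 to 3696). Eprs, which holds both classes, was left out of these counts.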
